A study of Homo sapiens with 12 samples.

Results

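The mitochondrial respiratory chain takes electrons from NADH at complex I and from succinate at complex II, passes them through ubiquinone to complex III and through cytochrome c to complex IV, and reduces oxygen there. Complexes I, III and IV pump protons across the inner membrane while they do so, and complex II, which is also an enzyme of the citric acid cycle, does not. Most subunits are encoded in the nucleus and imported, whereas a small set of core subunits of complexes I, III and IV is encoded in mitochondrial DNA, so a working complex needs products of both genomes. Complex II is encoded by the nucleus alone.

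The genes described here were 59 nuclear subunits of these 4 complexes, found by symbol in a table of 60668 genes, and each symbol matched 1 row. Complex I held 35 of them, 15 in the matrix arm that oxidises NADH and reduces ubiquinone and 20 in the membrane arm. Complex II held 4, complex III 9 and complex IV 11. NDUFA4 was counted with complex IV, of which it is a subunit in spite of its name. The tissue-restricted forms of complex IV subunits were not members.

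The study depleted candidate regulators of metabolic gene programmes in tumour cell lines and sequenced bulk RNA. There were 4 groups of 3 libraries: PANC-1 cells carrying an shRNA against FOSL1 (shFOSL1), PANC-1 cells with a scramble shRNA, H1299 cells carrying an shRNA against HDAC2 (shHDAC2), and H1299 cells with a scramble shRNA. PANC-1 is a pancreatic adenocarcinoma line and H1299 is labelled a lung adenocarcinoma line. All cells, scramble included, were infected with lentivirus and selected with puromycin, and each knockdown rested on 1 named shRNA. FOSL1 is a subunit of the AP-1 transcription factor and HDAC2 is a histone deacetylase. The line and the target changed together between the comparisons, so their parts in any difference between the knockdowns cannot be told apart. The labels call the replicates biological, and whether each was infected separately was not given in the sources used here.

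Libraries held 16065723 to 19173421 counts, of which 0.465% to 0.544% fell on the members. FOSL1 itself was at 178, 167 and 166 CPM (counts scaled to a common library total) in shFOSL1 cells, against 219, 217 and 242 CPM in scramble PANC-1 cells, a partial reduction (log2 fold change -0.43 ± 0.06, standard error, adjusted p = 2.9e-06). HDAC2 was at 77.3, 68.5 and 78.4 CPM in shHDAC2 cells, against 171, 178 and 187 CPM in scramble H1299 cells (-1.26 ± 0.07, adjusted p = 5.4e-15). FOSL1 was also higher in shHDAC2 cells than in scramble H1299 cells (0.40 ± 0.06, adjusted p = 4.4e-06). Both lines expressed the epithelial keratins KRT8 and KRT18, whereas KRT19, EPCAM and CDH1 averaged 25.0 to 374 CPM in PANC-1 groups and below 1 CPM in H1299 groups. Defining acinar and islet genes (PTF1A, PRSS1, CPA1, INS) and the surfactant genes SFTPB and SFTPC were at or near 0 in all groups, and so were the leukocyte genes PTPRC and CD3E. Other markers were low but above 1 CPM. In PANC-1 group means the pancreas gene PDX1 was at 2.07 to 2.38 CPM and the leukocyte gene CD14 at 2.22 to 3.36 CPM. In H1299 group means the lung gene NKX2-1 was at 1.98 to 2.48 CPM and the endothelial gene PECAM1 at 1.93 to 2.42 CPM.

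The first scramble library stood apart in both lines before any knockdown was considered. In PANC-1 it differed from the other scramble libraries by 7.92 and 10.7 times the sampling variance of counts, while those 2 differed from each other by 3.24 times. The H1299 values were 7.65 and 6.77 times, against 3.81 times. The subunits moved with it: they were higher in the first scramble library than in the mean of the other 2 for 51 of 59 members in PANC-1 (median log2 ratio 0.17, against -0.0037 over 11566 genes at 5 CPM or more) and for 53 of 59 in H1299 (0.21, against 0.03). Genes whose main transcript is under 1000 nucleotides, as for most subunits, were also higher there, with medians of 0.12 in PANC-1 and 0.16 in H1299. Counts of members called after each knockdown are therefore given with and without that library, a choice made after seeing the data. Since most members were higher in that library, leaving it out was bound to raise their fold changes in both lines. What set it apart was not tested.

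To show what regulatory sequence these genes carry, the 300 bases from 250 before to 50 after the RefSeq start site (GRCh38.p14) were read for the 50 members that had an entry. SDHC, CYC1, NDUFC2, NDUFS5, COX6C, NDUFB5, NDUFA4, NDUFB9 and UQCRB were not matched. Motifs were searched on both strands as exact strings. The NRF1 string GCGCANGCG, bound by a master activator of respiratory genes, was in 15 of the 50 promoters (30%, against 8.05% of 27305 promoters). The ETS string CCGGAAG, which GABPA binds, was in 15 (30%, against 10.7%), and the YY1 string AAGATGGC in 8 (16%, against 3.03%). The Sp1 string GGGCGG was in 30 (60%, against 44.6%). The AP-1 string TGANTCA, the kind of site FOSL1 binds with a JUN partner, was in 3 (6%, against 7.76%): NDUFB3, NDUFS6 and COX7C. The 5 strings share no common core, but matches can lie side by side in GC-rich sequence. These are matches of letters in a short window and no measure of binding.

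The promoters of 4 members whose levels moved in contrasting ways are printed below, 5′ to 3′ on the gene's strand, with matches to the 5 strings in capitals. SDHA and SDHB encode the catalytic pair of complex II and moved in opposite directions after FOSL1 knockdown, UQCRFS1 moved in opposite directions in the knockdowns, and NDUFB1 had the highest fold change of the members after FOSL1 knockdown. The SDHA window lies at chr5:218070-218369 on the plus strand and has 4 NRF1 matches, 166, 117, 68 and 19 bases before the start. The SDHB window lies at chr1:17053983-17054282 on the minus strand and has a Sp1 match, an ETS match 128 bases before the start and a YY1 match 10 bases after it. The UQCRFS1 window lies at chr19:29213102-29213401 on the minus strand and has 2 Sp1 matches and an NRF1 match 30 bases before the start. The NDUFB1 window lies at chr14:92121657-92121956 on the minus strand and has no match.
SDHA: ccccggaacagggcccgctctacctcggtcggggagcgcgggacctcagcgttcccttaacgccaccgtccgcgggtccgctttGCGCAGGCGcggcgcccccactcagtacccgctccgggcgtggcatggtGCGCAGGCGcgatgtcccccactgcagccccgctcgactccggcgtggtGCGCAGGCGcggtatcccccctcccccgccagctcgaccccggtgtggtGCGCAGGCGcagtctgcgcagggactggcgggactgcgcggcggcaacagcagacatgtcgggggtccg
SDHB: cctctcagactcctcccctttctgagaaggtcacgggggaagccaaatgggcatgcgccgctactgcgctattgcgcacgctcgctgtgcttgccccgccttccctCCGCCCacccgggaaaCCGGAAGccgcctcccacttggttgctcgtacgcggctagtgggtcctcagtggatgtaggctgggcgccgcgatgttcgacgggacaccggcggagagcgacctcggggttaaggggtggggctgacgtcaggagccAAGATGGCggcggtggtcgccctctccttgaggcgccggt
UQCRFS1: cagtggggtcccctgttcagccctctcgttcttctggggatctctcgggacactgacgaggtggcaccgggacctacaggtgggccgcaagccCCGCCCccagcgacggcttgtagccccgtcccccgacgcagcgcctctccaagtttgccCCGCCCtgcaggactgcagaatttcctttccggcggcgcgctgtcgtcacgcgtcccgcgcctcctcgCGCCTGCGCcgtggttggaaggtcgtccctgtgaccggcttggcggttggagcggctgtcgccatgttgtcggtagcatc
NDUFB1: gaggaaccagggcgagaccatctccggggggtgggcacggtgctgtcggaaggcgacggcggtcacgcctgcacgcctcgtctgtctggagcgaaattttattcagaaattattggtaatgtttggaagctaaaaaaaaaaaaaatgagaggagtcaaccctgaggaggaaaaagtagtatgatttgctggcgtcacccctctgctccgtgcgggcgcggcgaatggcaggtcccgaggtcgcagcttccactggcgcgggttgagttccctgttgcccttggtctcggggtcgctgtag

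Levels of the subunits were compared per kilobase of main transcript. Over the 12 libraries the highest were COX4I1 at 406 CPM per kilobase, a regulatory subunit of complex IV, UQCRH, the hinge protein of complex III, at 380, COX6B1 at 313, COX7C at 294 and NDUFS5 at 285. The lowest were NDUFA7 at 0.968, NDUFA9 at 1.32 and NDUFV2 at 1.92 CPM per kilobase. In the assembled complex each of these subunits is present in a single copy, counted per monomer for UQCRH of complex III. For 7 members more than 40% of the main transcript is shared with another gene model of the annotation (NDUFA7, NDUFA11, NDUFA13, NDUFB8, NDUFS7, NDUFV2 and SDHA), and their median level was 7.45 CPM, against 76.7 CPM for the other 52. Of the overlapping models with a row in the table, those known only by identifier were at 1.52 CPM or less in every group mean. The named ones were higher in their group means, with RPS28, which overlaps NDUFA7, at 142 to 245 CPM, HIF1AN, which overlaps NDUFB8, at 90.2 to 137 CPM and YJEFN3, which overlaps NDUFA13, at 6.14 to 8.49 CPM. Levels of these 7 are uncertain for that reason, and NDUFA9 has a main transcript of 8356 nucleotides that lowers its value per kilobase.

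**Figure D1:**
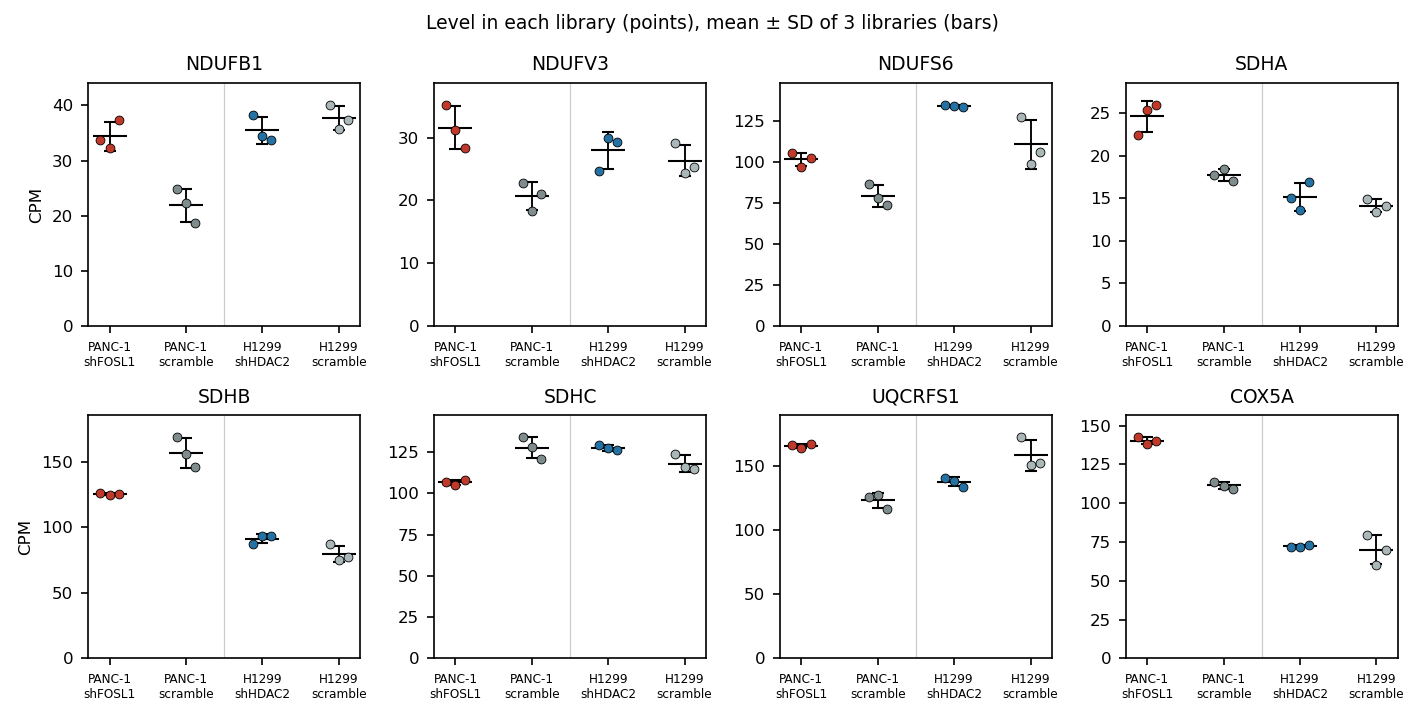
CPM (y axis, from 0) of 8 subunits in each of the 12 libraries (points), with the mean and SD of 3 libraries. NDUFB1, NDUFV3, NDUFS6, SDHA, UQCRFS1 and COX5A were higher in every shFOSL1 library than in every scramble PANC-1 library and SDHB and SDHC lower. In H1299 UQCRFS1 was lower and SDHB, SDHC and NDUFS6 higher in every shHDAC2 library than in every scramble library.

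After FOSL1 knockdown in PANC-1, 12 of the 34 tested subunits of complex I rose, led by NDUFB1, NDUFV3 and NDUFA6, while 20 did not pass. All 12 were accessory, as are most of the complex I subunits tested, and without the first scramble library core subunits were called higher too. The subunits of complex II diverged, with SDHA higher and SDHB and SDHC lower. The Rieske protein of complex III, UQCRFS1, rose by a fold similar to SDHA, and among complex IV subunits COX5A rose and NDUFA4 fell. Of 58 members tested (NDUFA7 was below the filter on counts), 15 were higher, 6 lower and 37 did not pass an adjusted p of 0.05 by edgeR's quasi-likelihood test. That is 36.2% of members, against 50.9% of the 16345 genes tested. By direction, 25.9% were higher (23.8% of all genes) and 10.3% lower (27.1% of all genes). The median log2 fold change of members was 0.08, against -0.02 for all genes, and 4 members passed with a log2 fold change beyond 0.5 in size (26.5% of all genes did). The share of members called higher was near that of all genes.

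The first scramble library, in which most members were higher and which was left out after seeing the data, changed this picture. Without it, 32 members were higher and 6 lower, so that 55.2% were higher, against 27.3% of all genes (65.5% and 54.3% in either direction), and the median was 0.16. Of the 21 members first called, 20 were called again and NDUFS7 was not. The gain was spread over the complexes: complex I went to 21 higher and 2 lower, complex III to 3 and 1, and complex IV to 7 and 1, while complex II stayed at 1 and 2. With the dependence of counts on transcript length removed in each library, 13 were higher and 10 lower. Marker genes of other cell types also moved: the fibroblast list summed to 86.2 to 93.7 CPM in shFOSL1 libraries, against 233 to 292 CPM in scramble PANC-1 libraries, with 2 and 3 of its 5 genes at 1 CPM or more. COL1A1 made up most of it, and the defining genes DCN and LUM were below 0.1 CPM. COL3A1 on the same list was higher with shFOSL1 (mean 11.5 CPM, against 8.77 CPM in scramble cells). The epithelial list summed to 1551 to 1585 CPM in shFOSL1 libraries, against 2017 to 2577 CPM in scramble libraries. Only KRT19 on that list was higher with shFOSL1 (mean 374 CPM, against 316 CPM in scramble cells). The part of either list in these subunit changes was not tested.

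**Figure D2:**
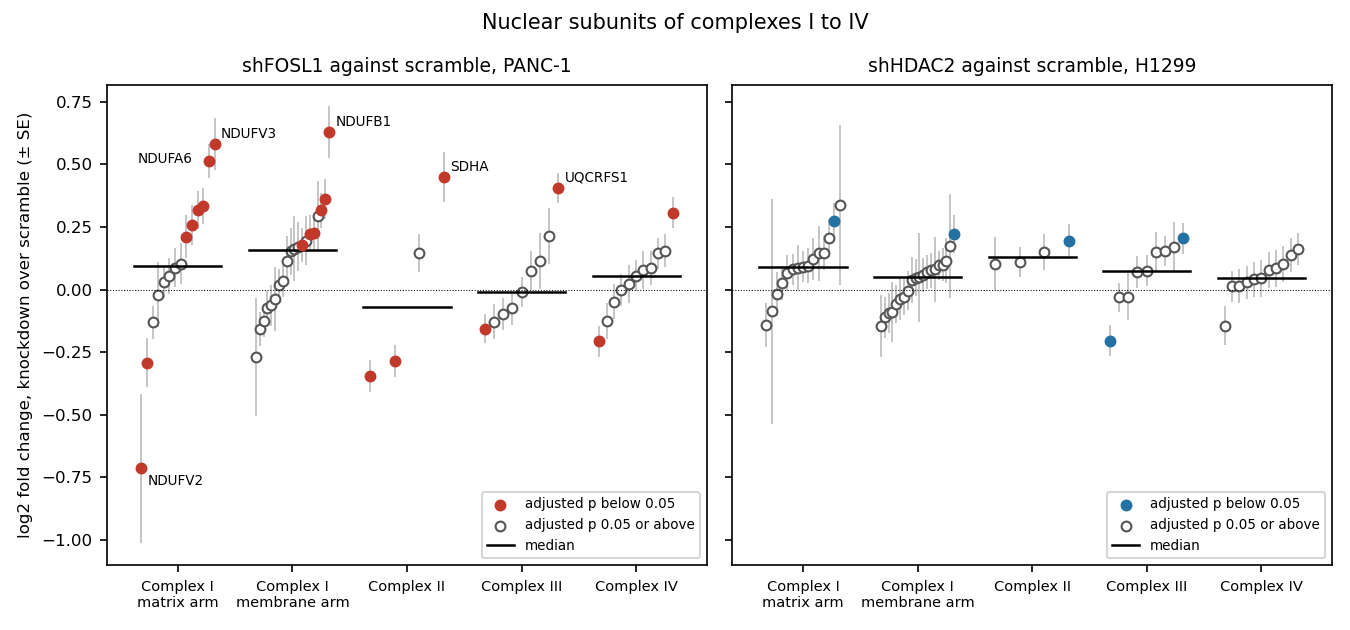
Log2 fold change (y axis, ± standard error) of each subunit, knockdown over scramble, by complex, with filled points for an adjusted p below 0.05 and bars for medians. After FOSL1 knockdown (left) the points of complex I reach 0.63 at NDUFB1 and complex II splits in both directions, whereas after HDAC2 knockdown (right) 5 of 59 points are filled and none lies beyond 0.34.

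In the matrix arm of complex I, 6 of 14 tested subunits were higher and 2 lower (median 0.10), which is 42.9% higher against 23.8% of all genes. Without the first scramble library 10 were higher and 2 lower (median 0.20), 71.4% higher against 27.3% of all genes. NDUFV3, an accessory subunit beside the NADH-oxidising site, was at 35.2, 31.2 and 28.3 CPM in shFOSL1 cells, against 22.8, 18.3 and 21.1 CPM in scramble cells (0.58 ± 0.10, adjusted p = 5.0e-05). NDUFA6, which binds the mitochondrial acyl carrier protein to the complex, was at 104, 95.1 and 97.6 CPM in shFOSL1 cells, against 70.3, 69.2 and 65.2 CPM in scramble cells (0.51 ± 0.07, adjusted p = 1.0e-06). The groups did not overlap for either gene. NDUFS6, a zinc-binding subunit of the NADH module, was at 105, 97.1 and 102 CPM in shFOSL1 cells, against 86.3, 77.7 and 73.4 CPM in scramble cells (0.33 ± 0.07, adjusted p = 0.00037). NDUFA5, NDUFA12 and NDUFA2 were the other higher ones, by 0.32, 0.26 and 0.21 on the log2 scale. All 6 are accessory subunits, which do not carry redox centres.

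With all libraries, of the 6 core members of the matrix arm, 0 were called higher by edgeR, DESeq2 or limma-voom, and 0 at an unadjusted p under 0.05. Without the first scramble library, the 10 subunits of this arm called higher outnumbered its accessory members, so core members were among them. NDUFS7, which carries the last iron-sulfur cluster before ubiquinone, was at 24.6, 24.9 and 25.4 CPM in shFOSL1 cells, against 34.2, 28.8 and 27.2 CPM in scramble cells (-0.29 ± 0.10, adjusted p = 0.015). That call was lost without the first scramble library (-0.16, adjusted p = 0.105) and without shFOSL1 library 1 (0.061) or 2 (0.0528). NDUFV2, a subunit of the NADH-oxidising module, was at 2.52, 1.35 and 0.847 CPM in shFOSL1 cells, against 2.36, 2.51 and 2.71 CPM in scramble cells (-0.72 ± 0.30, adjusted p = 0.049). Its groups overlapped, its adjusted p was 0.276 without shFOSL1 library 3, 0.147 without library 2, and 0.0822 and 0.0871 without scramble libraries 2 and 3, DESeq2 gave 0.0947, and 90% of its main transcript overlaps another gene model. The NDUFV2 call was lost in 6 of 16 alternative runs. NDUFV1, which binds NADH and FMN, was at 247, 233 and 250 CPM in shFOSL1 cells and 254, 232 and 219 CPM in scramble cells (0.03 ± 0.06). NDUFS1, NDUFS3 and NDUFS8, which carry further iron-sulfur clusters or support them, had fold changes of -0.13, 0.09 and 0.05 with adjusted p from 0.0915 to 0.555.

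In the membrane arm, 6 of 20 subunits were higher and 0 lower by edgeR (median 0.16), and 0 were lower by DESeq2 or limma-voom and 1 at an unadjusted p under 0.05. That is 30% higher, against 23.8% of all genes, and without the first scramble library 11 were higher and 0 lower (median 0.23), 55% higher. NDUFB1, a small accessory subunit of the distal arm, was at 33.8, 32.2 and 37.3 CPM in shFOSL1 cells, against 24.8, 22.2 and 18.7 CPM in scramble cells (0.63 ± 0.10, adjusted p = 1.7e-05). NDUFB2 was at 75.8, 69.8 and 62.6 CPM in shFOSL1 cells, against 57.3, 50.9 and 51.0 CPM in scramble cells (0.36 ± 0.08, adjusted p = 0.00053). NDUFA1, needed to build the membrane arm, was at 107, 101 and 106 CPM in shFOSL1 cells, against 90.4, 81.7 and 76.0 CPM in scramble cells (0.32 ± 0.07, adjusted p = 0.00059). None of these groups overlapped. NDUFS5, NDUFB11 and NDUFB4 followed at 0.23, 0.22 and 0.18. The subunit with the lowest fold change, NDUFA13, was at 1.92 to 3.12 CPM in shFOSL1 cells and 2.35 to 3.33 CPM in scramble cells (-0.27 ± 0.24). NDUFB5 (-0.16 ± 0.07, adjusted p = 0.054) lay just outside the threshold.

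Complex II was called for 3 of its 4 genes, of which SDHB and SDHC fell and SDHA rose. That is 75%, on 4 genes only, against 50.9% of all genes. SDHB, its iron-sulfur subunit, was at 127, 124 and 126 CPM in shFOSL1 cells, against 169, 156 and 146 CPM in scramble cells (-0.35 ± 0.06, adjusted p = 8.7e-05). SDHC, one of the membrane anchors that hold ubiquinone, was at 107, 105 and 108 CPM in shFOSL1 cells, against 134, 128 and 121 CPM in scramble cells (-0.28 ± 0.06, adjusted p = 0.00065). SDHA, the flavoprotein that oxidises succinate, was at 22.4, 25.4 and 25.9 CPM in shFOSL1 cells, against 17.7, 18.4 and 17.0 CPM in scramble cells (0.45 ± 0.10, adjusted p = 0.0006). Every shFOSL1 library lay below every scramble library for SDHB and SDHC and above for SDHA. SDHD, the other anchor, did not pass (0.15 ± 0.07, adjusted p = 0.105), except without scramble library 3 (0.21, adjusted p = 0.0264).

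The SDHA value needs care, because its main transcript shares 69.4% of its bases with another gene model and because it has expressed near-copies elsewhere. SDHAP1, a pseudogene, was at 19.7, 23.6 and 19.5 CPM in shFOSL1 cells, below SDHA in each library, and at 19.2 to 25.2 CPM in scramble cells, above SDHA in each. SDHAP3, another, was at 17.2 ± 1.79 CPM in shFOSL1 cells, against 9.86 ± 0.829 CPM in scramble cells (SD, n = 3 each; 0.78 ± 0.12, adjusted p = 7.8e-06). Reads of SDHA and its copies may have been split by the counting, and how far the pseudogene contributed to the SDHA change was not tested.

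In complex III, 1 of 9 subunits was higher, 1 lower and 7 did not pass (median -0.0094), so that 22.2% were called, against 50.9% of all genes. UQCRFS1, the Rieske iron-sulfur protein that takes electrons from ubiquinol, was at 166, 164 and 167 CPM in shFOSL1 cells, against 125, 127 and 116 CPM in scramble cells (0.41 ± 0.06, adjusted p = 6.4e-06). UQCRC2, a core scaffold protein, was at 182, 181 and 180 CPM in shFOSL1 cells, against 193, 203 and 199 CPM in scramble cells (-0.16 ± 0.06, adjusted p = 0.027). The UQCRC2 call was lost without any of 5 of the 6 libraries (adjusted p 0.087 to 0.179) and held only without the first scramble library. In all, it was lost in 9 of 16 alternative runs, among them RLE scaling (0.0606) and mitochondrial genes left out (0.0537). The other core protein UQCRC1 (-0.13 ± 0.07) and CYC1, cytochrome c1 (-0.08 ± 0.06), did not pass.

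In complex IV, COX5A was at 142, 138 and 140 CPM in shFOSL1 cells, against 114, 111 and 109 CPM in scramble cells (0.31 ± 0.06, adjusted p = 0.00018). NDUFA4 was at 135, 133 and 132 CPM in shFOSL1 cells, against 161, 151 and 143 CPM in scramble cells (-0.21 ± 0.06, adjusted p = 0.008). Neither pair of groups overlapped. The other 9 subunits had fold changes between -0.12 and 0.16, and COX6B1 (adjusted p = 0.051) and COX7C (0.053), with fold changes of 0.16 and 0.15, lay just outside the threshold. With all libraries 18.2% of the complex IV members were called, against 50.9% of all genes. Of the 11 members, 8 were called without the first scramble library, 7 higher and 1 lower. That is 63.6% higher against 27.3% of all genes (72.7% and 54.3% in either direction).

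After HDAC2 knockdown in H1299 few of these genes passed the test. Of 59 members, 4 were higher (NDUFS6, NDUFB7, UQCRH and SDHB), 1 was lower (UQCRFS1) and 54 did not pass. That is 8.47% of members, against 22.4% of 16465 genes tested, with 6.78% higher (10.3% of all genes) and 1.69% lower (12.1% of all genes). The median fold change was 0.08, against -0.0049 for all genes, and 74.6% of members had a fold change above 0 (49.2% of all genes). With upper quartile scaling 2 were higher and 1 lower. Without the first scramble library 18 were higher and 1 lower, with 30.5% of members higher against 12.4% of all genes (32.2% and 24.2% in either direction), the median was 0.14 and all 5 first called were among them. Complex IV had 0 called by edgeR, DESeq2 or limma-voom (2 at an unadjusted p under 0.05) and 6 higher without that library, and complex I had 2 higher and then 6. Complex II went to 2 higher and 0 lower and complex III to 4 and 1. The epithelial list summed to 345 to 365 CPM in shHDAC2 libraries, against 548 to 610 CPM in scramble H1299 libraries, with 3 of its 6 genes at 1 CPM or more in each group. The fibroblast list summed to 4.24 to 4.28 CPM in shHDAC2 libraries, against 5.92 to 7.23 CPM in scramble H1299 libraries, with 1 and 2 of its 5 genes at 1 CPM or more. The part of either list in the subunit changes was not tested.

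NDUFS6 was at 134, 134 and 133 CPM in shHDAC2 cells, against 127, 98.5 and 106 CPM in scramble H1299 cells (0.28 ± 0.07, adjusted p = 0.0041), and it remained called under each alternative run. NDUFB7, an accessory subunit on the intermembrane-space side of complex I, was at 61.2, 61.4 and 60.4 CPM in shHDAC2 cells, against 59.7, 47.9 and 49.0 CPM in scramble cells (0.22 ± 0.08, adjusted p = 0.031). UQCRH was at 184, 180 and 184 CPM in shHDAC2 cells, against 175, 149 and 151 CPM in scramble cells (0.20 ± 0.06, adjusted p = 0.016). For these 3 genes every shHDAC2 library lay above every scramble library, and the first scramble library was the nearest to them. The share of all genes that separated in this way is not given here.

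UQCRFS1 was at 141, 138 and 134 CPM in shHDAC2 cells, against 172, 150 and 152 CPM in scramble cells (-0.21 ± 0.06, adjusted p = 0.015). SDHB was at 87.6, 93.5 and 93.2 CPM in shHDAC2 cells, against 87.0, 75.0 and 77.4 CPM in scramble cells (0.19 ± 0.07, adjusted p = 0.033). The groups did not overlap for either. The rest of complex II had fold changes of 0.10 for SDHA, 0.11 for SDHC and 0.15 for SDHD, with adjusted p from 0.132 to 0.533. SDHC passed without the first scramble library (0.14, adjusted p = 0.0347).

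Each of these smaller calls except NDUFS6 was lost without single libraries. NDUFB7 lost it without any library but the first scramble one (adjusted p 0.0819 to 0.156), and SDHB likewise (0.0546 to 0.136). UQCRH lost it without shHDAC2 libraries 1 and 3 or scramble libraries 2 and 3 (0.0571 to 0.0891). UQCRFS1 lost it without shHDAC2 libraries 2 and 3 (0.0647 and 0.113). Upper quartile scaling moved NDUFB7 (0.0502) and SDHB (0.0556) past the threshold. In all, the NDUFB7 call was lost in 7 of 16 alternative runs.

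Summed over its nuclear subunits, complex II was lower with shFOSL1, where complex I was higher, and was higher with shHDAC2. The complex II sum was 335, 326 and 333 CPM in shFOSL1 cells, against 381, 370 and 355 CPM in scramble PANC-1 cells, and 281, 287 and 291 CPM in shHDAC2 cells, against 273, 248 and 254 CPM in scramble H1299 cells. Neither pair overlapped. Complex I summed to 2346 ± 71.6 CPM in shFOSL1 cells and 2136 ± 127 CPM in scramble PANC-1 cells, without overlap, and to 1980 ± 25.1 CPM in shHDAC2 cells and 1871 ± 150 CPM in scramble H1299 cells, with overlap. Complex III and complex IV sums overlapped between knockdown and scramble in both lines. A sum weighs abundant subunits most and was not tested, and in bulk RNA fewer cells and less RNA per cell cannot be told apart.

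**Figure D3:**
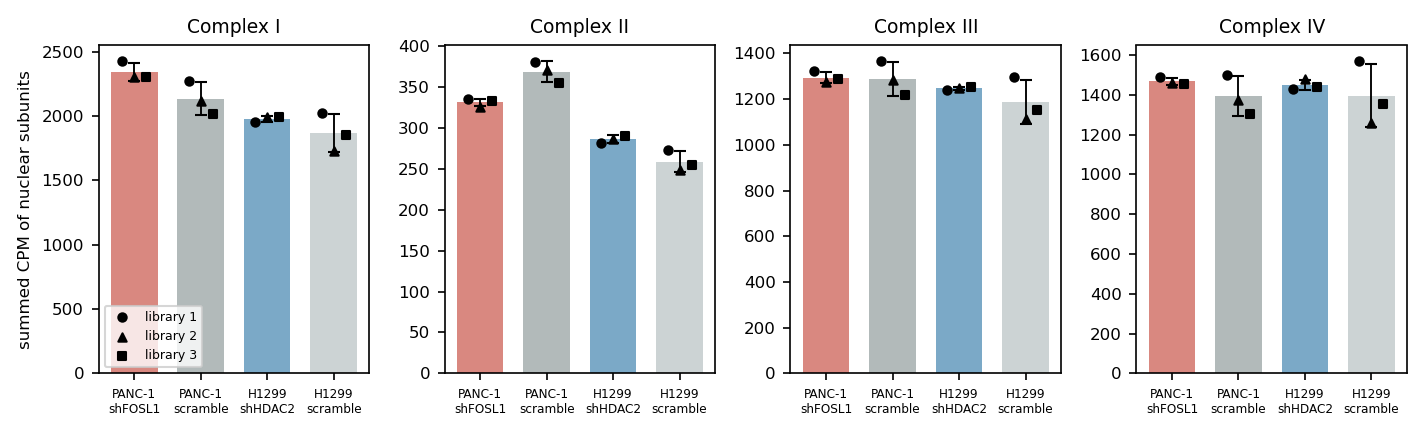
Summed CPM of the nuclear subunits of each complex (y axes, from 0), with bars for the mean, error bars for the SD of 3 libraries and symbols for each library. Complex II is lower in shFOSL1 cells (mean 331) than in scramble PANC-1 cells (369), and the first scramble library is the highest of its group in each panel.

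The test of the difference between the knockdown effects (shFOSL1 over scramble, less shHDAC2 over scramble) was made for all 59 members. It called 8 with a more positive and 3 with a more negative effect in PANC-1, 18.6% of members against 33.8% of 18505 genes (13.6% against 18.3%, and 5.08% against 15.5%). The split depended on scaling, with 6 and 6 under RLE and 7 and 5 under upper quartile scaling, 7 and 7 with mitochondrial genes left out, and 6 and 12 with the length trend removed. Without the first scramble library of both lines, an alternative chosen after seeing the data, it was 9 and 10 (all genes: 35.9% in either direction and 18.6% more positive). Complex II was called for 3 of 4, complex I for 5 of 35.

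Among the members that passed, the differences of largest size were in NDUFB1 (0.74 ± 0.13, adjusted p = 4.4e-05), UQCRFS1 (0.63 ± 0.09, adjusted p = 1.1e-06), SDHB (-0.52 ± 0.09, adjusted p = 6.2e-05), NDUFV3 (0.52 ± 0.14, adjusted p = 0.0055) and NDUFA6 (0.47 ± 0.10, adjusted p = 0.00064). The difference of NDUFV2 was larger in size (-1.03 ± 0.45) but did not pass (adjusted p = 0.0745), at the low counts given above. UQCRFS1 and SDHB were called in both knockdowns and in opposite directions. UQCRFS1 rose with shFOSL1 and fell with shHDAC2, and SDHB fell with shFOSL1 and rose with shHDAC2. For NDUFB1, NDUFV3 and NDUFA6 the shHDAC2 effects were -0.09 ± 0.08, 0.09 ± 0.09 and 0.06 ± 0.07. NDUFS6 rose in both, and its difference was 0.08 ± 0.11.

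As a set, subunits encoded in mitochondrial DNA changed further than their nuclear partners with shFOSL1 (median 1.40), though the ranges overlapped. All 13 such genes, which include 2 subunits of ATP synthase, rose in shFOSL1 cells (23.8% of all genes were called higher). The rises were 0.43 to 1.82 on the log2 scale, led by MT-ND2 (8554 ± 533 CPM in shFOSL1 cells, 2379 ± 179.7 CPM in scramble cells) and MT-ND1. Nuclear complex I subunits had a median of 0.13 in the same cells, and NDUFB1 reached 0.63. The rises of MT-ND4 (0.63), MT-ND6 (0.51), MT-ND5 (0.43) and MT-ND4L (0.43) lay within that nuclear range. After HDAC2 knockdown 2 of 13 fell, MT-ND4 by 0.18 and MT-ND4L by 0.20. That is 15.4%, near the 12.1% of all genes called lower. Without the first scramble library MT-CO2 rose with shHDAC2 as well (0.14, adjusted p = 0.0134). Mitochondrial reads took 12.6% to 13.3% of counts in shFOSL1 libraries and 6.99% to 7.29% in scramble PANC-1 libraries. Leaving these genes out before scaling gave 17 higher and 5 lower members.

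**Figure D4:**
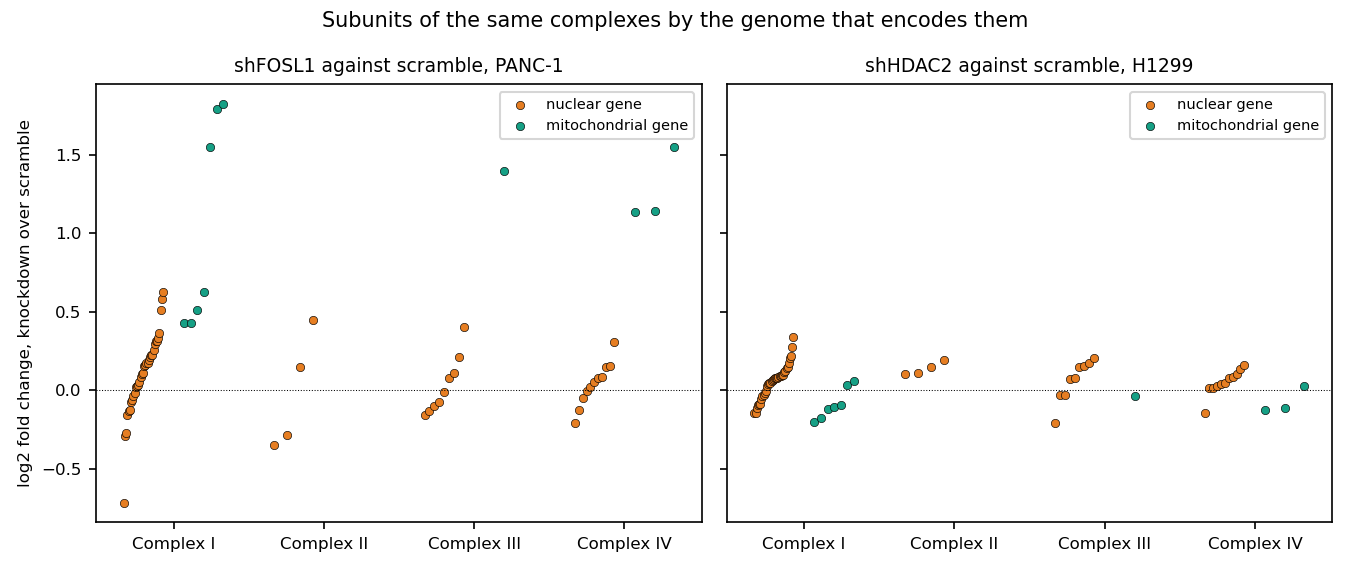
Log2 fold change (y axis) of each subunit of complexes I to IV, knockdown over scramble, for nuclear genes (left in each pair) and mitochondrial genes (right), with no mitochondrial gene in complex II. After FOSL1 knockdown every mitochondrial subunit lies at 0.43 or more and nuclear subunits lie between -0.72 and 0.63, so the ranges overlap.

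Genes that help build or control the chain were taken from lists, whose shares called are read against 50.9% of all genes with shFOSL1 and 22.4% with shHDAC2 (54.3% and 24.2% without the first scramble library). Of 16 complex I assembly factors, 5 were higher and 3 lower with shFOSL1 (50% called, and again 5 and 3 without that library), led by NDUFAF4 (0.76 ± 0.11) and TMEM186 (0.32 ± 0.13, lost without that library at an adjusted p of 0.0641), with COA1 (-0.40 ± 0.07) and NDUFAF1 (-0.35 ± 0.11) lower. Of 23 complex IV assembly factors tested, 9 were higher and 2 lower (47.8% called, and 11 and 2 without that library). Both shares were near that of all genes in either direction. Without that library, 31.2% of the complex I factors and 47.8% of the complex IV factors were called higher, against 27.3% of all genes. COA6, which helps deliver copper to COX2, averaged 26.9 ± 0.27 CPM in shFOSL1 cells and 13.9 ± 1.21 CPM in scramble cells (0.93 ± 0.10, adjusted p = 5.3e-08), and COA7 rose by a similar amount (0.90 ± 0.09, adjusted p = 2.1e-08). COX18, which inserts COX2 into the membrane, and COX11, a copper chaperone, were lower (-0.41 ± 0.12 and -0.19 ± 0.07). SDHAF2, which attaches the flavin to SDHA, rose (0.48 ± 0.16), and it was the only complex II assembly factor of 4 to pass, with or without that library. Of 6 complex III assembly factors, 0 passed by edgeR, DESeq2 or limma-voom, and 1 in each direction had an unadjusted p under 0.05. Without the first scramble library 2 were higher (BCS1L and UQCC3) and 1 lower (UQCC1).

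The median of the complex IV assembly factors with shFOSL1 was 0.25, against 0.06 for the complex IV subunits themselves and -0.02 for all genes. Without the first scramble library these medians were 0.24, 0.15 and 0.0017. With shHDAC2, 4 of 24 complex IV assembly factors were higher and 1 lower (20.8% called, and 6 and 1 without that library), among them SURF1 (0.35 ± 0.08), COX10, an enzyme of heme A synthesis, (0.32 ± 0.09) and COA5 (-0.26 ± 0.10). COX10 rose in both knockdowns (0.47 ± 0.11 with shFOSL1). The complex III factors UQCC1 and LYRM7, a chaperone of UQCRFS1, rose with shHDAC2 (0.22 ± 0.06 and 0.29 ± 0.09), and LYRM7 lost its call without the first scramble library (0.19, adjusted p = 0.0794). NDUFAF6 was the only complex I factor to pass (0.29 ± 0.11), and 5 were higher without that library.

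Nuclear ATP synthase genes were higher for 5 of 18 and lower for 1 with shFOSL1 (33.3% called, and 10 and 1 without the first scramble library), with ATP5PD at 0.36 ± 0.07, ATP5MF at 0.34 ± 0.07 and the catalytic ATP5F1B at -0.18 ± 0.05. With shHDAC2 4 of 18 were higher (22.2% called, and 8 higher and 1 lower without that library), ATP5PB at 0.34 ± 0.06 and ATP5MC3 at 0.19 ± 0.07 among them. Of the genes that join complexes or carry electrons between them, HIGD1A (0.44 ± 0.09) and HIGD2A (0.43 ± 0.10) rose and COX7A2L, which links complex III to complex IV, fell (-0.32 ± 0.06) with shFOSL1. HIGD2A fell with shHDAC2 (-0.32 ± 0.10), a call lost without the first scramble library (-0.22, adjusted p = 0.0878). Cytochrome c, CYCS, passed in neither (0.01 ± 0.06 and 0.08 ± 0.06).

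Among 10 regulators of respiratory genes, 5 were higher and 1 lower with shFOSL1 (60% called, near the share of all genes in either direction, and the same counts without the first scramble library). Without that library 50% were called higher, against 27.3% of all genes. With shHDAC2 5 were higher (50%, against 10.3% of all genes called higher) and 3 without that library (30%, against 12.4%), when TFAM and GABPB1 were lost. The NRF1 gene itself rose with shFOSL1 (20.4 ± 1.57 CPM, against 14.7 ± 0.381 CPM in scramble cells, 0.45 ± 0.11, adjusted p = 0.00096), and YY1 fell (-0.24 ± 0.06). PPARGC1B, a coactivator of NRF1 and ERR factors, rose with shFOSL1 (0.48 ± 0.11) and with shHDAC2 (0.47 ± 0.10), and TFB2M, which starts mitochondrial transcription, rose with shHDAC2 (0.34 ± 0.08). Of the tissue-restricted forms of complex IV subunits, COX6B2 averaged 11.7 CPM in shFOSL1 cells and 20.8 CPM in scramble cells (-0.86 ± 0.12), and NDUFA4L2, the relative of NDUFA4 known as a hypoxia gene, averaged 0.696 CPM in shHDAC2 cells and 1.63 CPM in scramble cells (-1.21 ± 0.34).

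Without any knockdown the lines differed in most subunits. Scramble PANC-1 cells were higher than scramble H1299 cells for 24 members and lower for 15, and 20 did not pass, which is 66.1% called against 77.7% of 18505 genes (40.7% against 37.9% higher, 25.4% against 39.8% lower). The complexes did not shift as wholes, except that the 4 complex II genes all had a fold change above 0, 3 of them called. These scramble libraries are also the ones the knockdowns were set against.

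SDHB averaged 157 ± 11.3 CPM in scramble PANC-1 cells and 79.8 ± 6.33 CPM in scramble H1299 cells (0.98 ± 0.07, adjusted p = 1.6e-14). UQCRC2 averaged 198 ± 4.91 CPM in PANC-1 and 83.5 ± 1.07 CPM in H1299 (1.25 ± 0.06, adjusted p = 7.3e-19), whereas 5 other complex III subunits were lower in PANC-1, with UQCR11 the furthest (-0.50 ± 0.10, adjusted p = 3.7e-05). In complex IV, COX4I1 was at 236, 215 and 207 CPM in PANC-1 and 437, 352 and 387 CPM in H1299 (-0.84 ± 0.07, adjusted p = 5.3e-13), and NDUFA4 was higher in PANC-1 (0.69 ± 0.07, adjusted p = 8.2e-11). In complex I the range ran from NDUFA12 (-0.80 ± 0.07, adjusted p = 1.3e-11) to NDUFA3 (1.42 ± 0.11, adjusted p = 7.0e-13), so that subunits of the same complex differed between the lines in opposite directions.

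Of the 7 tissue-restricted forms of complex IV subunits, 2 were called between the lines, in opposite directions. COX6B2 was at 20.8 CPM in scramble PANC-1 cells and 0.256 CPM in scramble H1299 cells, and COX7B2 at 0.0178 CPM in scramble PANC-1 cells and 5.94 CPM in scramble H1299 cells. NDUFA4L2 was at 1.52 CPM in scramble PANC-1 cells and 1.63 CPM in scramble H1299 cells (-0.10, adjusted p = 0.762). COX4I2, COX6A2, COX7A1 and COX8C were below 0.5 CPM in every group mean. The paired general forms COX6B1 (0.04 ± 0.07) and COX7B (0.02 ± 0.08) had adjusted p of 0.589 and 0.863 between the lines.

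**Figure D5:**
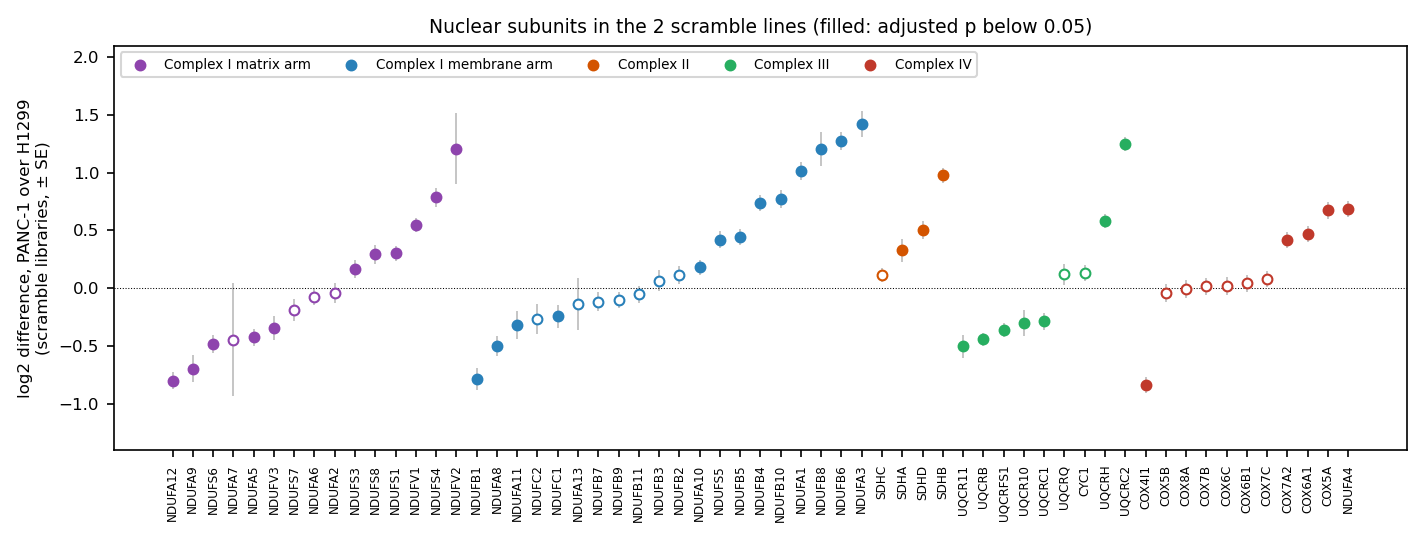
Log2 difference (y axis, ± standard error) of each of the 59 subunits, scramble PANC-1 over scramble H1299, grouped by complex and ordered within it, with filled points for an adjusted p below 0.05. All 4 complex II genes lie above 0, while the arms of complex I and complex III spread in both directions.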

How the data were processed

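RNA of 12 libraries was extracted with Trizol and sequenced as paired reads after a NEBNext Ultra kit. According to the labels and methods, the authors used cutadapt, STAR 2.7.2b (GRCh38) and featureCounts 2.0.1 and deposited raw counts per gene. The annotation release and strand setting were not given in the sources used here, so reads of overlapping genes may not be told apart. Positions, lengths and overlaps come from GENCODE 44, which held 60295 of the 60668 identifiers.

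Counts were tested with edgeR 4.0.16 (R 4.3.3): filterByExpr, TMM, quasi-likelihood test, Benjamini-Hochberg adjustment over all genes tested, called below 0.05. Each knockdown was fitted with its own scramble, and the difference and the lines over all 12 libraries. Printed CPM share 1 TMM scaling. Groups said not to overlap are a description of libraries, given without the share of all genes that did the same. SE is the fold change over the root of F. The members and lists were chosen with earlier results of these data known. Named members were the called ones with the 3 highest and 3 lowest fold changes in each arm or complex, all of complex II, the 5 differences of largest size among those called, the highest and lowest per complex between lines, and up to 2 per direction in each list. Others were picked after their values were seen. Alternatives used DESeq2 1.42.0, limma 3.58.1, other scalings, filters, a replicate block and left-out libraries.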

Additional observations from a re-analysis of the deposited data

Results flagged for a closer look

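The effects of the knockdowns on 5 members differed by the test of the difference itself (edgeR's quasi-likelihood test, adjusted over 18505 genes, 3 libraries per group). The difference is the shFOSL1 effect in PANC-1 less the shHDAC2 effect in H1299. It was 0.74 for NDUFB1, whose effects were 0.63 with shFOSL1 and -0.09 with shHDAC2. It was 0.63 for UQCRFS1, with effects of 0.41 and -0.21, and -0.52 for SDHB, with effects of -0.35 and 0.19. It was 0.52 for NDUFV3, with effects of 0.58 and 0.09, and 0.47 for NDUFA6, with effects of 0.51 and 0.06. Because the line and the target changed together, their parts cannot be told apart.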

How the results depend on the processing

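Of 36 named fold changes, 27 kept their call and direction under each alternative run, and none changed sign in 648 refits, 37 of which lost a call and 2 of which gained one. Leaving out 1 library at a time gave 15 to 38 members called for shFOSL1 (21 with all libraries), 1 to 19 for shHDAC2 (5), 9 to 18 for the difference between the knockdowns (11) and 36 to 41 between the scramble lines (39). The highest counts for the knockdowns came without the first scramble library. Without that of both lines, chosen after seeing the data, 19 differences were called. Asking as well for a log2 fold change beyond 0.5 in size left 4 members for shFOSL1, 0 for shHDAC2, 4 for the difference and 20 between lines. Upper quartile scaling gave 3 for shHDAC2, and removing the trend with transcript length gave 8 for shHDAC2 and 18 for the difference. Other counts lay within 1.5 times of those given. Same-numbered libraries deviated together with correlations from -0.08 to 0.09, so the numbers were not taken as pairs, and a replicate block gave 23, 6, 9 and 35 members called in the order above. With sums scaled to non-mitochondrial reads alone, log2 ratios of summed complex levels, knockdown over scramble, moved by less than the spread of the scramble libraries in CPM. With shHDAC2 they moved by more than the spread of the shHDAC2 libraries. The complex III ratio with shFOSL1 changed sign (1294 against 1289 CPM as given, 1369 against 1378 on that scale). The levels themselves moved by more than the spread for several sums (complex II in shHDAC2 cells was 335 on that scale and 286 CPM as given). Low counts limit NDUFA7, NDUFA13 and NDUFV2.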
